A study of Mus musculus with 13 samples.

Results

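Polycomb repressive complex 1 (PRC1) was followed through 10 of its subunit genes, Bmi1, Ring1, Rnf2, Pcgf1, Pcgf5, Pcgf6, Cbx7, Cbx8, Phc2 and Phc3, on 13 expression arrays of whole bone marrow. The genes were found by symbol among the 19505 genes that have a symbol in the array's annotation, and each of the 10 has 1 row. Bmi1 was selected on its log2 signal, which was higher with the Ezh2 guide than without it, so its differences are described here without a test. The rule gives no measured value as the reason for the other 9 genes.

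The marrow came from C57Bl/6J mice that were irradiated with 7 Gy and received LSK cells, a marrow fraction rich in stem and progenitor cells, 24 h after transduction with guide RNAs. The transplanted cells of all 3 groups came from Cas9 knock-in mice, so the nuclease is shared by the controls. BRSST+sgEzh2 (4 arrays) carried a guide combination named BRSST, which the labels do not spell out, and a guide against Ezh2. BRSST+sgLuc (5 arrays) carried the same combination with the control guide sgLuc, and sgLuc (4 arrays) carried the control guide alone. Marrow was taken whole when signs of leukemia appeared or after 6 months. Which case applied to which sample, the animals' ages and the shares of edited cells and of cells left from the host are unknown here. The labels do not tie arrays to animals, so every p-value reflects only how these samples varied, and that variation may be technical.

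PRC1 places ubiquitin on histone H2A and compacts chromatin over silenced developmental genes. Each complex has a catalytic RING protein, Ring1 or Rnf2, paired with 1 PCGF protein, of which Bmi1 is a family member. CBX and PHC proteins complete the canonical complexes, which find their targets through the histone mark laid down by Polycomb repressive complex 2 (PRC2), whose methyltransferase is Ezh2. In blood formation Bmi1 is known for sustaining self-renewal of stem cells, in part by silencing the cell cycle inhibitor locus Cdkn2a.

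Values are log2 signals, so a difference of 1 is a doubling. Array medians lay between 7.19 and 7.32, and the mean correlation of an array with the others of its group lay between 0.972 and 0.992. The neutrophil and granule marker list had a mean signal of 12.70 to 12.96 on every array. Uty and Kdm5d, both Y-linked, were high on 4 of 4 sgLuc arrays, on 2 of 4 with BRSST and the Ezh2 guide and on 2 of 5 BRSST+sgLuc arrays. Ezh2 itself ran from 8.08 to 9.22 in BRSST+sgEzh2, from 9.15 to 10.46 in BRSST+sgLuc and from 9.94 to 10.55 in sgLuc. It was lower by 1.57 ± 0.28 (log2, SE) in BRSST+sgEzh2 than in sgLuc (limma adjusted p = 0.00306), while its difference of -1.05 ± 0.26 from BRSST+sgLuc did not pass (0.0808, and 0.0414 without BRSST+sgLuc replicate 5). A signal lay above its array's median on all 13 arrays for 8 of the 10 genes, on 12 arrays for Bmi1 and on 8 for Pcgf6, and all 10 entered the test.

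Bmi1 stood far above both other groups in BRSST+sgEzh2 marrow. Its log2 signal was 9.38, 9.54, 9.31 and 9.78 on the BRSST+sgEzh2 arrays. On the BRSST+sgLuc arrays it was 7.86, 7.59, 7.56, 7.85 and 8.08, and on the sgLuc arrays 7.61, 7.52, 6.88 and 7.68. The lowest BRSST+sgEzh2 array thus exceeded the highest array of either other group by more than the whole range within BRSST+sgEzh2, whereas BRSST+sgLuc and sgLuc overlapped and sgLuc replicate 3 was the lowest of all. Group means were 9.50 ± 0.21 (SD, n = 4), 7.79 ± 0.21 (SD, n = 5) and 7.43 ± 0.37 (SD, n = 4). In order of level, BRSST+sgEzh2 came first, and the other groups, which are neighbours in that order, differed by 0.36 ± 0.17 (log2, SE), a 1.29-fold difference. The difference between BRSST+sgEzh2 and BRSST+sgLuc, on which Bmi1 was picked, was 1.71 ± 0.17, and that between BRSST+sgEzh2 and sgLuc was 2.08 ± 0.18, or 4.22-fold. These comparisons share arrays with each other and carry no separate evidence. Leaving out 1 array at a time gave 1.62 to 1.79 for the first and 1.89 to 2.16 for the second.

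Bmi1 values within each Y-linked class are given as a description, since Bmi1 was selected on these arrays, and the part of that class in its difference was not tested. Among arrays with high Uty and Kdm5d, the Bmi1 mean was 9.46 on 2 BRSST+sgEzh2 arrays and 7.85 on 2 BRSST+sgLuc arrays. Where Uty and Kdm5d were low, it was 9.54 on 2 and 7.75 on 3 arrays. In whole marrow, more cells of a type and more RNA per cell cannot be told apart. The marker list of stem and progenitor cells, in which Bmi1 is known to be active, had a mean signal of 7.77 to 8.44 in BRSST+sgEzh2, 7.52 to 8.04 in BRSST+sgLuc and 7.80 to 7.97 in sgLuc, so its groups overlapped throughout. Between the BRSST groups 0 of its 7 tested genes passed, beside 0.783% of all genes tested. The erythroid list was at 7.04 to 7.81, 7.86 to 8.94 and 6.91 to 7.55 in the same order, without overlap between the BRSST groups. There 0 of its 7 tested genes passed, beside the same 0.783%. The monocyte and macrophage list was at 9.34 to 10.23, 8.59 to 9.65 and 9.76 to 9.97. Of its 11 tested genes, 10 had a higher mean in BRSST+sgEzh2 than in BRSST+sgLuc, with a median difference of 0.79. Of these, 1 was called higher, beside 0.67% of all genes. The B lineage list was at 7.08 to 9.16 in BRSST+sgEzh2 and 6.97 to 8.80 in BRSST+sgLuc. All 9 of its tested genes had a higher mean in BRSST+sgEzh2, with a median difference of 0.82. The T and NK list was at 6.48 to 8.71 and 6.56 to 8.14, with 8 of 10 genes higher, 2 lower and a median of 0.99. No gene of either list passed there. The part of these lists in the Bmi1 difference was not tested.

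**Figure D1:**
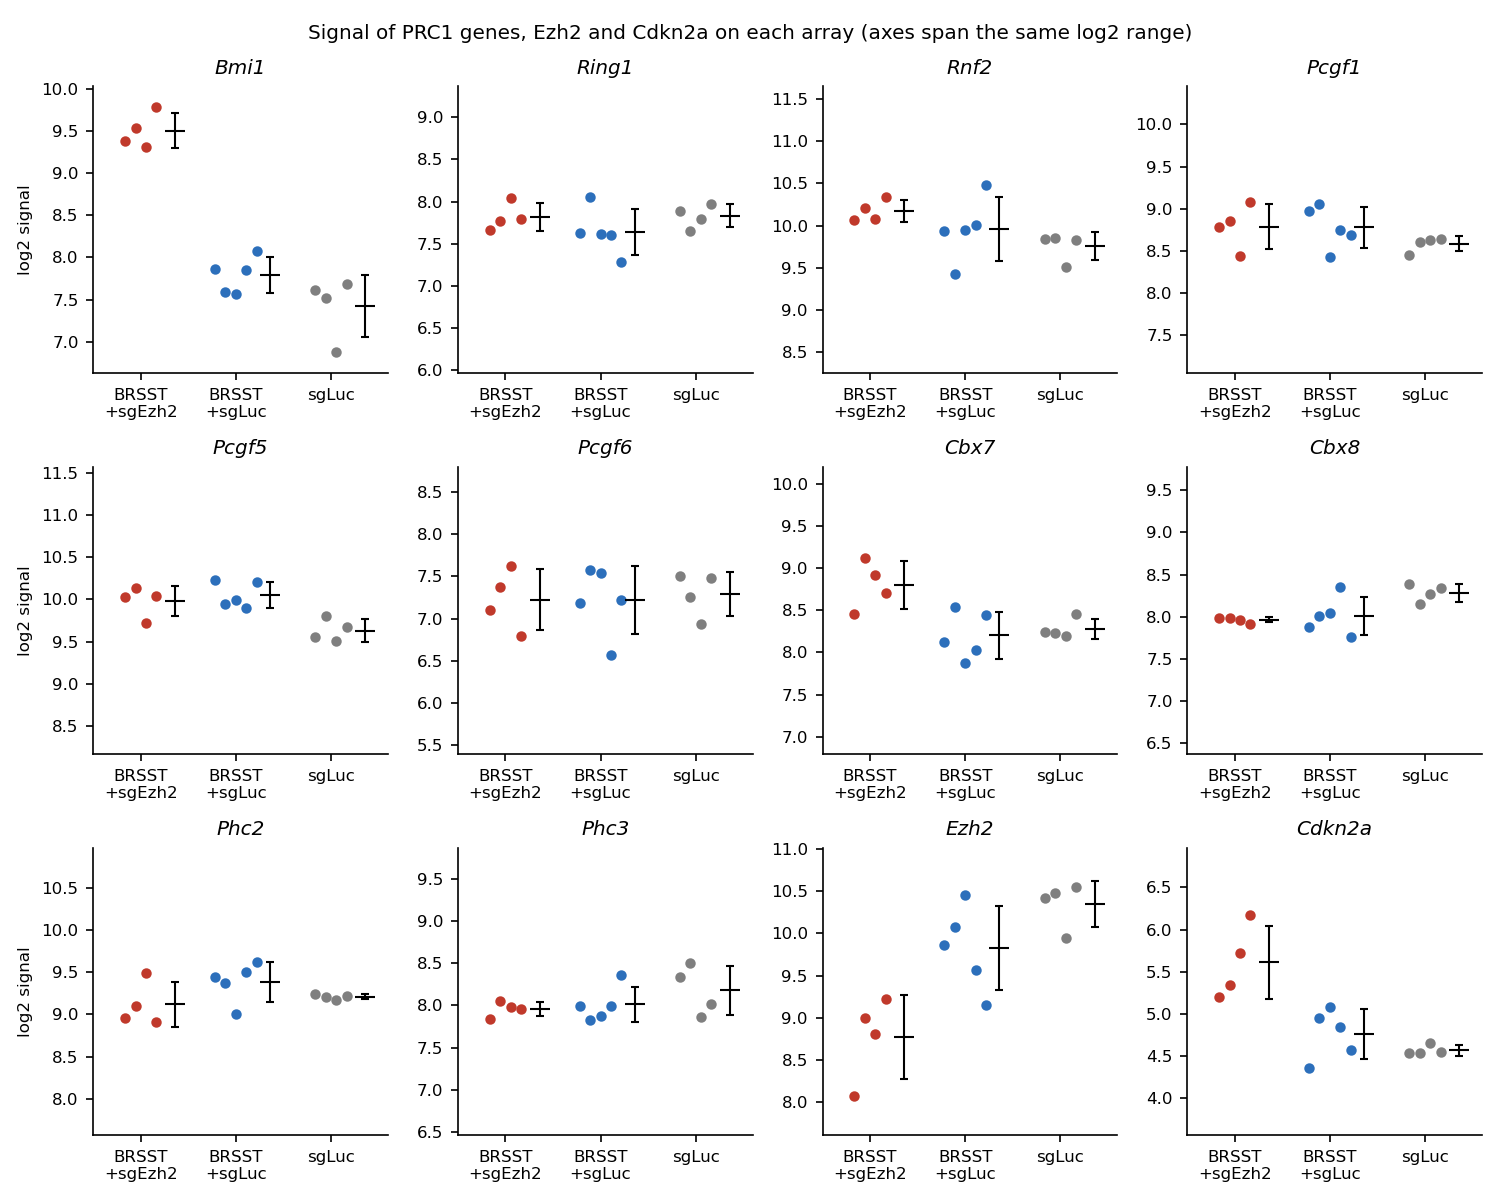
Log2 signal of the 10 PRC1 genes, Ezh2 and Cdkn2a on each array, with 1 point per array in replicate order from left to right and a bar for the mean with its SD beside each group. Every panel spans the same log2 range, and Bmi1 is the panel in which 1 group, BRSST+sgEzh2 at 9.31 to 9.78, is separated from the other groups by the widest gap.

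The sequence in front of Bmi1 and that of its nearest upstream neighbour Commd3 are shown because their signals differed between the groups in unlike ways, and that of Cbx7 because it had the next largest difference of the 10 genes. Each is the run of 250 bases that ends just before the RefSeq start of the gene (assembly GRCm38.p6), read 5′ to 3′ on the gene's strand. Bmi1 lies at chr2:18676768-18677017 on the plus strand, Commd3 at chr2:18672185-18672434 on the plus strand and Cbx7 at chr15:79932647-79932896 on the minus strand. Capitals mark the motifs searched on both strands, which were the E-box CACGTG bound by Myc family factors, the GC box GGGCGG bound by Sp1, the CCAAT box CCAAT and the E2F motif GCGGGAA.
Bmi1: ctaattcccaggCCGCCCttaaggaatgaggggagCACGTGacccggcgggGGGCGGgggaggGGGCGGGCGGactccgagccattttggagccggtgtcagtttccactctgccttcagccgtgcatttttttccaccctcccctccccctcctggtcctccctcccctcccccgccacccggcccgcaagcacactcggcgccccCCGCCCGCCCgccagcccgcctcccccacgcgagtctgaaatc
Commd3: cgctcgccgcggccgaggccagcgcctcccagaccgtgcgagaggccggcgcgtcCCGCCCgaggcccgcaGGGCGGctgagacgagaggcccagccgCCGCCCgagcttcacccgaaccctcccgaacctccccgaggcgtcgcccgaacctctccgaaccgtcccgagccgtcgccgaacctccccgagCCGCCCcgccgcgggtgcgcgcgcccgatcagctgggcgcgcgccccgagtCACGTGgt
Cbx7: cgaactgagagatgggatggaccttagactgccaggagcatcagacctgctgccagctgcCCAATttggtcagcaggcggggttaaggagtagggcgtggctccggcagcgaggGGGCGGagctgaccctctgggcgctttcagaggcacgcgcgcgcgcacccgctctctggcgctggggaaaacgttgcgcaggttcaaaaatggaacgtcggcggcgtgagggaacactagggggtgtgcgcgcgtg

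The Bmi1 run held 1 E-box and 6 GC boxes, some of them overlapping, and 21 CpG dinucleotides. In Commd3 the counts were 1 E-box, 4 GC boxes and 45 CpG, and in Cbx7 they were 1 CCAAT box, 1 GC box and 23 CpG. An E-box was held by 6.02% of the 32841 such runs in RefSeq's list, a GC box by 32.7%, a CCAAT box by 33.9% and the E2F motif by 3.82%. The table matched 9 of the 10 genes with 13 start sites, of which 4 held an E-box (in Bmi1, Cbx8, Phc2 and Phc3), 11 a GC box, 5 a CCAAT box and 1 the E2F motif. CpG counts ran from 1 to 34 with a median of 21, against a median of 6 over all runs, and 11 of the 13 were above that median. Bmi1, with 21 CpG, was at the median of the 13 start sites. The part of CpG content in any difference of signal was not tested. These matches are letters in a window and were not tested as sites.

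None of the measured genes beside Bmi1 passed between the BRSST groups, where 0.783% of all genes tested did. Of the 3 protein-coding genes on either side in the RefSeq table, Mllt10, Dnajc1 and Commd3 lie before it and Gm46725, Spag6 and Pip4k2a after it, and all but Gm46725 were measured. Commd3, a subunit of the COMMD complex that sorts membrane proteins in endosomes, was at 10.28, 10.43, 9.94 and 10.52 in BRSST+sgEzh2. It was at 10.19, 10.25, 10.15, 10.12 and 10.11 in BRSST+sgLuc and at 9.75, 9.72, 9.07 and 9.75 in sgLuc. Both BRSST groups therefore lay above sgLuc without overlap and overlapped each other. Commd3 rose by 0.59 ± 0.15 in BRSST+sgLuc (limma adjusted p = 0.0146) and by 0.72 ± 0.16 in BRSST+sgEzh2 (0.0128) against sgLuc, and both calls held in each fit that left out 1 array (up to 0.0449). Between the BRSST groups its difference was 0.13 ± 0.15 (limma adjusted p = 0.768), beside 1.71 for Bmi1. Mllt10, a partner gene of leukemic fusions, differed by -0.08 ± 0.13 between the BRSST groups, Dnajc1, a co-chaperone of the endoplasmic reticulum, by 0.19 ± 0.11, Spag6, a protein of the sperm axoneme, by -0.12 ± 0.11 and Pip4k2a, a lipid kinase, by 0.17 ± 0.09. Their limma adjusted p lay between 0.468 and 0.847. The sign of Mllt10 turned without BRSST+sgLuc replicate 5 (0.03). Transcripts that run from Commd3 into Bmi1 were not tested for.

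**Figure D2:**
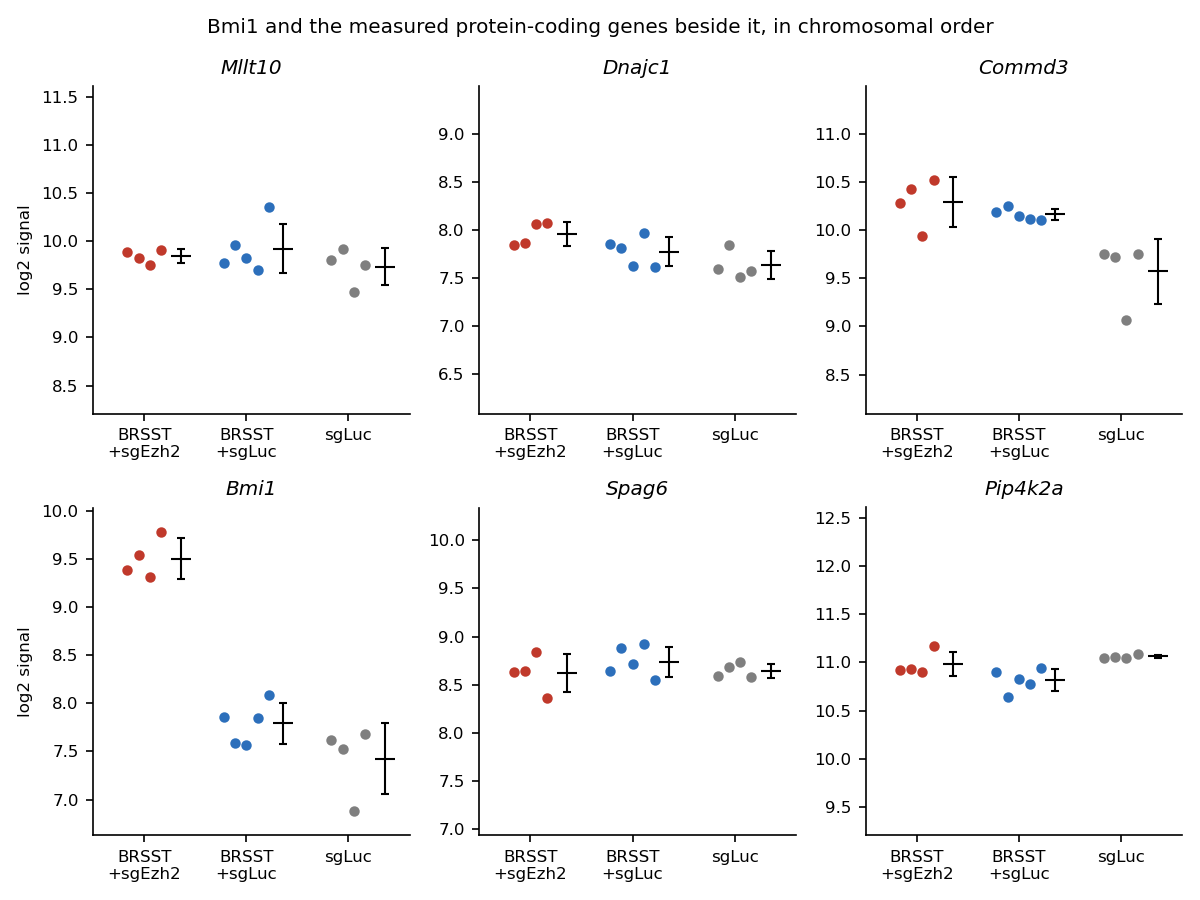
Log2 signal of Bmi1 and the 5 measured protein-coding genes among its 3 neighbours on either side, in chromosomal order, with points for arrays and bars for the mean and SD. Commd3 separates sgLuc (9.07 to 9.75) from both BRSST groups (9.94 to 10.52), while Bmi1 separates BRSST+sgEzh2 from both other groups.

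None of the other 9 genes passed when the BRSST marrows with and without the Ezh2 guide were set against each other (limma, 0 of 9, beside 0.783% of all 10601 genes tested). At an unadjusted p under 0.05 the count was 1, Cbx7, beside 13.9% of all genes. Differences ran from -0.27 (Phc2) to 0.60 (Cbx7), with limma adjusted p from 0.0952 to 0.996, and their median was 0.005 beside 0.013 over all genes tested. All 9 intervals of 95% lay within 1 log2 unit of 0, the widest reach being 0.94 for Cbx7, while the Bmi1 difference was 1.71. No member other than Bmi1 had groups that did not overlap here, against 3.53% of all genes.

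The catalytic subunits moved little. Ring1 was at 7.66, 7.77, 8.05 and 7.79 in BRSST+sgEzh2, at 7.63, 8.05, 7.62, 7.60 and 7.29 in BRSST+sgLuc and at 7.89, 7.66, 7.80 and 7.97 in sgLuc, and all groups overlapped. Its difference between the BRSST groups was 0.18 ± 0.14 (95% interval -0.12 to 0.48). Rnf2, the paralog that carries most of the ligase activity in many cells, was at 10.06, 10.21, 10.08 and 10.34 in BRSST+sgEzh2. It was at 9.93, 9.43, 9.95, 10.01 and 10.48 in BRSST+sgLuc, where replicates 2 and 5 were the extremes, and at 9.85, 9.86, 9.51 and 9.83 in sgLuc. BRSST+sgEzh2 lay above sgLuc without overlap, by 0.41 ± 0.18 (limma adjusted p = 0.165, and 0.0316 with only those groups in the fit), and BRSST+sgLuc overlapped both. The Rnf2 difference between the BRSST groups was 0.21 ± 0.17 (95% interval -0.15 to 0.57).

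Of the PCGF subunits beside Bmi1, which define the variant complexes, Pcgf5 was the 1 with a called difference among those that entered the test. Pcgf5, part of a complex that acts without a CBX subunit, was at 10.24, 9.94, 10.00, 9.89 and 10.20 in BRSST+sgLuc and at 9.55, 9.80, 9.50 and 9.67 in sgLuc, so these groups did not overlap. On the BRSST+sgEzh2 arrays it was 10.03, 10.14, 9.72 and 10.04, of which replicate 3 fell inside the sgLuc range. The rise was 0.42 ± 0.12 in BRSST+sgLuc against sgLuc, or 1.34-fold (limma adjusted p = 0.0191). It lost its call without BRSST+sgLuc replicate 1 (0.053), sgLuc replicate 1 (0.0636) or sgLuc replicate 3 (0.055). Against sgLuc, BRSST+sgEzh2 differed by 0.35 ± 0.12 (limma adjusted p = 0.0922, and 0.0454 when BRSST+sgEzh2 replicate 3 was left out). Between the BRSST groups Pcgf5 differed by -0.07 ± 0.12.

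Pcgf1, the subunit that works with the CpG-binding protein Kdm2b, ranged from 8.44 to 9.08 in BRSST+sgEzh2, from 8.43 to 9.05 in BRSST+sgLuc and from 8.45 to 8.64 in sgLuc. Its differences were 0.009 ± 0.14 between the BRSST groups, and from sgLuc 0.20 ± 0.14 in BRSST+sgLuc and 0.20 ± 0.15 in BRSST+sgEzh2. Pcgf6, of the complex that holds Mga and E2f6, had the largest SD of the 10 genes within both BRSST groups, with signals from 6.80 to 7.63 in BRSST+sgEzh2 and from 6.56 to 7.58 in BRSST+sgLuc, and ran from 6.94 to 7.51 in sgLuc. Its SDs of 0.36 and 0.41 compare with medians of 0.188 and 0.248 over all genes tested. The differences of Pcgf6 were 0.005 ± 0.22, -0.07 ± 0.22 and -0.07 ± 0.23 in the same order, with an interval of -0.46 to 0.47 for the first, so a difference of the Pcgf5 size could have been missed. Pcgf2, the closest paralog of Bmi1, lay under the array median on too many arrays to be tested. Its signal was 5.80 to 5.94 in BRSST+sgEzh2, 5.84 to 6.63 in BRSST+sgLuc and 5.51 to 5.69 in sgLuc, so the last groups did not overlap. In a fit of all 19505 genes without the filter, Pcgf2 was higher by 0.56 ± 0.14 in BRSST+sgLuc than in sgLuc (limma adjusted p = 0.0188), and differed by -0.30 ± 0.14 between the BRSST groups (0.438) and by 0.26 ± 0.15 between BRSST+sgEzh2 and sgLuc (0.43).

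Cbx7, a chromodomain reader of trimethylated H3 in canonical complexes, had the largest difference after Bmi1. It was at 8.45, 9.12, 8.92 and 8.70 in BRSST+sgEzh2, at 8.12, 8.53, 7.87, 8.03 and 8.44 in BRSST+sgLuc and at 8.24, 8.23, 8.20 and 8.46 in sgLuc. Of the BRSST+sgEzh2 arrays 3 lay above every other array, and replicate 1 fell below the highest array of each other group. The difference was 0.60 ± 0.16 from BRSST+sgLuc, or 1.51-fold (limma adjusted p = 0.0952, and 0.0398 with a difference of 0.68 when BRSST+sgLuc replicate 2 was left out), and 0.52 ± 0.17 from sgLuc (0.0682, and 0.0436 with a difference of 0.63 without BRSST+sgEzh2 replicate 1). Between BRSST+sgLuc and sgLuc it was -0.08 ± 0.16. Cbx8, another reader of the family, was at 7.99, 7.98, 7.97 and 7.92 in BRSST+sgEzh2, the tightest group of any member in the BRSST marrows. It was at 7.88, 8.01, 8.05, 8.35 and 7.76 in BRSST+sgLuc and at 8.39, 8.15, 8.27 and 8.34 in sgLuc. BRSST+sgEzh2 lay below sgLuc without overlap, by -0.32 ± 0.12 (limma adjusted p = 0.116, and 0.0327 with only those groups in the fit). BRSST+sgLuc differed from sgLuc by -0.28 ± 0.11 (limma adjusted p = 0.0981, and 0.0284 with a difference of -0.36 when BRSST+sgLuc replicate 4 was left out).

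The Polyhomeotic subunits, which polymerise through a SAM domain and help to cluster PRC1 on chromatin, did not pass in any comparison. Phc2 was at 8.96, 9.10, 9.50 and 8.92 in BRSST+sgEzh2, at 9.44, 9.37, 9.001, 9.50 and 9.63 in BRSST+sgLuc and at 9.24, 9.21, 9.17 and 9.22 in sgLuc, with sgLuc inside the range of both other groups. Its difference between the BRSST groups was -0.27 ± 0.14 (95% interval -0.57 to 0.03, limma adjusted p = 0.416). Phc3 ranged from 7.84 to 8.05, from 7.83 to 8.36 and from 7.86 to 8.50 in the same order of groups, and its differences were -0.05 ± 0.14 between the BRSST groups, and from sgLuc -0.17 ± 0.14 in BRSST+sgLuc and -0.22 ± 0.15 in BRSST+sgEzh2.

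**Figure D3:**
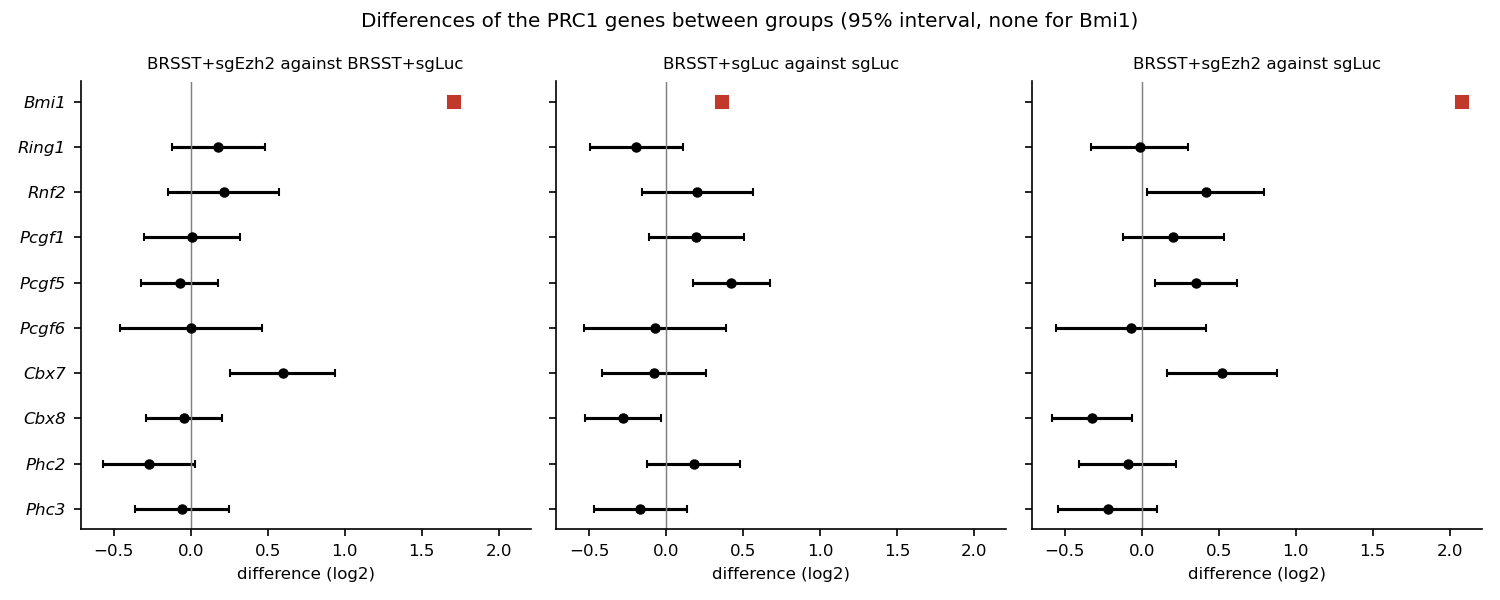
Differences (log2) of the 10 PRC1 genes in the 3 comparisons, with 95% intervals from limma that are not adjusted for the number of genes. Bmi1, the red square, has no interval because it was picked for its difference. In the first panel the other genes lie between -0.27 and 0.60 and Bmi1 at 1.71.

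The 9 genes other than Bmi1 were also compared with the control guide, beside the shares over all genes. Whether their counts differ from those shares was not tested. BRSST+sgLuc against sgLuc, which asks what the BRSST guides change, had 1 of 9 called, Pcgf5, beside 22.5% of all genes tested, and BRSST+sgEzh2 against sgLuc had 0 of 9 beside 9.37% (limma). In the latter comparison 4 of the 9 had an unadjusted p under 0.05, beside 24.3% of all genes, namely Rnf2, Pcgf5 and Cbx7, which were higher, and Cbx8, which was lower. Groups did not overlap for 1 of 9 genes in the first comparison, beside 18.9% of all genes, and for 2 of 9, or 22.2%, in the second, beside 23.3%. Medians of the 9 differences were -0.07 and -0.01, beside 0.01 and 0.02 over all genes. All intervals again lay within 1 log2 unit of 0. Differences from sgLuc cannot be told apart from an array batch, since the labels number that group's arrays in a series of their own. Those differences also go partly with the Y-linked class. Uty and Kdm5d were high on 4 of 4 sgLuc, 2 of 5 BRSST+sgLuc and 2 of 4 BRSST+sgEzh2 arrays.

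Of 24 tested PRC1 subunits outside the 10, 0 passed between the BRSST groups, beside 0.783% of all genes tested. Their differences had a median of 0.04, beside 0.013 over all genes, and a range of -0.26 to 0.46. The smallest p-values belonged to Mga, the DNA-binding partner of Max in the Pcgf6 complex (0.46 ± 0.15, limma adjusted p = 0.186, and 0.011 with array weights or 0.0469 without BRSST+sgLuc replicates 2 and 5), and Phc1, another Polyhomeotic paralog (0.30 ± 0.12, 0.27). In BRSST+sgLuc against sgLuc 1 rose, Fbrsl1, a homolog of the AUTS2 protein (0.38 ± 0.13, limma adjusted p = 0.0411), and 1 fell, Hdac1, a histone deacetylase (-0.52 ± 0.17, 0.0461), beside 10.8% and 11.7% of all genes. Each of those calls ended without any of 6 or 7 of the 9 arrays (up to 0.126 and 0.125). The call of Hdac1 also ended with the Y-linked class as a covariate (limma adjusted p = 0.138). In BRSST+sgEzh2 against sgLuc 0 of 24 passed, beside 9.37% of all genes. Scmh1, a Polycomb group protein with MBT repeats, came closest (0.46 ± 0.18, limma adjusted p = 0.139). Scmh1 passed with only those groups in the fit (0.0268), with array weights (0.0128) and without BRSST+sgLuc replicates 2 and 5 (0.0188).

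PRC2 and the enzymes that remove ubiquitin from H2A were described beside PRC1. Of 13 tested PRC2 genes 0 passed between the BRSST groups, beside 0.783% of all genes tested. Ezh2 was at -1.05 and the median was 0.09, beside 0.013 over all genes. In BRSST+sgLuc against sgLuc 2 of the 13 fell, a share near the 11.7% of all genes called lower. They were Ezh1, the second methyltransferase of PRC2 (-0.45 ± 0.14, limma adjusted p = 0.0369), and Jarid2, a cofactor that helps PRC2 to its targets (-0.34 ± 0.10, 0.0292), but they lost their calls without any of 6 and of 5 of the 9 arrays (up to 0.11 and 0.0836). Against sgLuc, BRSST+sgEzh2 had 1 fall, that of Ezh2, beside 3.86% of all genes. Among 11 tested genes of H2A deubiquitination, 0 passed between the BRSST groups, beside the same 0.783%. Against sgLuc, 2 of the 11 were called lower in BRSST+sgLuc, beside 11.7% of all genes. In BRSST+sgEzh2 it was 1, beside 3.86%. Ogt, the enzyme that adds N-acetylglucosamine to nuclear proteins and a partner of Bap1, was at 9.84, 9.95, 9.69 and 9.82 in BRSST+sgEzh2, at 8.98, 9.22, 9.53, 8.92 and 9.60 in BRSST+sgLuc and at 10.39, 10.33, 10.34 and 10.33 in sgLuc, with no overlap between any groups. Ogt fell by 1.10 ± 0.14 in BRSST+sgLuc against sgLuc (limma adjusted p = 0.000213, up to 0.00155 without 1 array). Its difference between the BRSST groups was 0.57 ± 0.14 (limma adjusted p = 0.0705, and 0.0254 or 0.0345 when BRSST+sgLuc replicate 3 or 5 was left out). The fall of 0.52 ± 0.15 in BRSST+sgEzh2 against sgLuc (0.0387) lost its call without any 1 of the 8 arrays (0.0612 to 0.105). Kdm1b, a histone demethylase, fell in BRSST+sgLuc (-0.97 ± 0.26, limma adjusted p = 0.0161, and 0.0576 or 0.0507 without sgLuc replicate 1 or 4).

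Cdkn2a, the locus that Bmi1 is best known for silencing, had its highest signal in BRSST+sgEzh2, the group in which Bmi1 was highest. It was at 5.20, 5.35, 5.72 and 6.18 in BRSST+sgEzh2, at 4.36, 4.95, 5.08, 4.85 and 4.58 in BRSST+sgLuc and at 4.53, 4.54, 4.66 and 4.54 in sgLuc. BRSST+sgEzh2 overlapped neither other group. These are dim signals: the array's lower quartile, which lay between 5.59 and 5.85, was exceeded on 1 of 4 BRSST+sgEzh2 arrays and on 0 of 9 others, so Cdkn2a was not among the genes tested and the size of its difference is uncertain. In a fit of all 19505 genes without the filter, its difference was 0.85 ± 0.18 from BRSST+sgLuc (limma adjusted p = 0.0525) and 1.04 ± 0.19 from sgLuc (0.00522). The row reports the locus as a whole and does not separate its Ink4a and Arf transcripts.

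Of the known PRC1 targets, 39 were measured and 17 tested. Hoxa5, a homeobox gene, was at 7.09, 7.17, 7.24 and 6.85 in BRSST+sgEzh2, at 7.77, 7.60, 7.56, 7.77 and 7.73 in BRSST+sgLuc and at 7.06, 6.87, 6.87 and 6.96 in sgLuc, so BRSST+sgLuc stood above both other groups. It was the only 1 of the 17 to pass between the BRSST groups, and it fell in BRSST+sgEzh2 (-0.60 ± 0.10, limma adjusted p = 0.0149, beside 0.113% of all genes). That call ended when replicate 1 (0.0534) or 4 (0.0586) of BRSST+sgEzh2 was left out, when replicate 1 (0.0588) or 4 (0.0522) of BRSST+sgLuc was, with only those groups in the fit (0.0985) and with the replicate number as a block (0.0875). Against sgLuc, 6 of the 17 targets rose and 2 fell in BRSST+sgLuc, beside 10.8% of all genes higher and 11.7% lower. Cdkn1a, an inhibitor of cyclin-dependent kinases, rose by 1.29 ± 0.21 (limma adjusted p = 0.00114), Hoxa5 by 0.75 ± 0.10 (0.000337) and Hoxb7 by 0.64 ± 0.17 (0.0173), each also without any 1 array. Cdkn1a also rose in BRSST+sgEzh2 against sgLuc, by 1.08 ± 0.22 (0.00783), the 1 target called there, beside 5.51% of all genes. In BRSST+sgLuc against sgLuc, Hoxa6 rose by 0.55 ± 0.15 (limma adjusted p = 0.019, and 0.0658 or 0.0565 without sgLuc replicate 1 or 4). Ebf1 and Pax5 are transcription factors of the B lineage that Bmi1 is known to hold silent in stem cells. In the same comparison of BRSST+sgLuc with sgLuc they differed by -2.87 ± 0.58 and -2.99 ± 0.76 and so fell (limma adjusted p = 0.00374 and 0.0125). Beside these, the B lineage marker list, which holds both, was at 6.97 to 8.80 in BRSST+sgLuc and 9.31 to 10.58 in sgLuc, and 8 of its 9 tested genes fell, beside 11.7% of all genes. The part of B cell content in their fall was not tested.

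Genes known to regulate Bmi1 gave no call between the BRSST groups, 0 of 5 tested, beside 0.783% of all genes. Klf4, a zinc finger factor of differentiated cells, differed by 0.74 ± 0.23 there (limma adjusted p = 0.177, and 0.00953 when BRSST+sgLuc replicate 3, a high array at 9.16, was left out), and E2f1, a cell cycle factor, by 0.16 ± 0.12 (0.576). Klf4 was the 1 of the 5 called in BRSST+sgLuc against sgLuc, where it fell (-0.76 ± 0.23, limma adjusted p = 0.0321), beside 11.7% of all genes. That call ended without any of 7 of the 9 arrays (up to 0.0944).

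**Figure D4:**
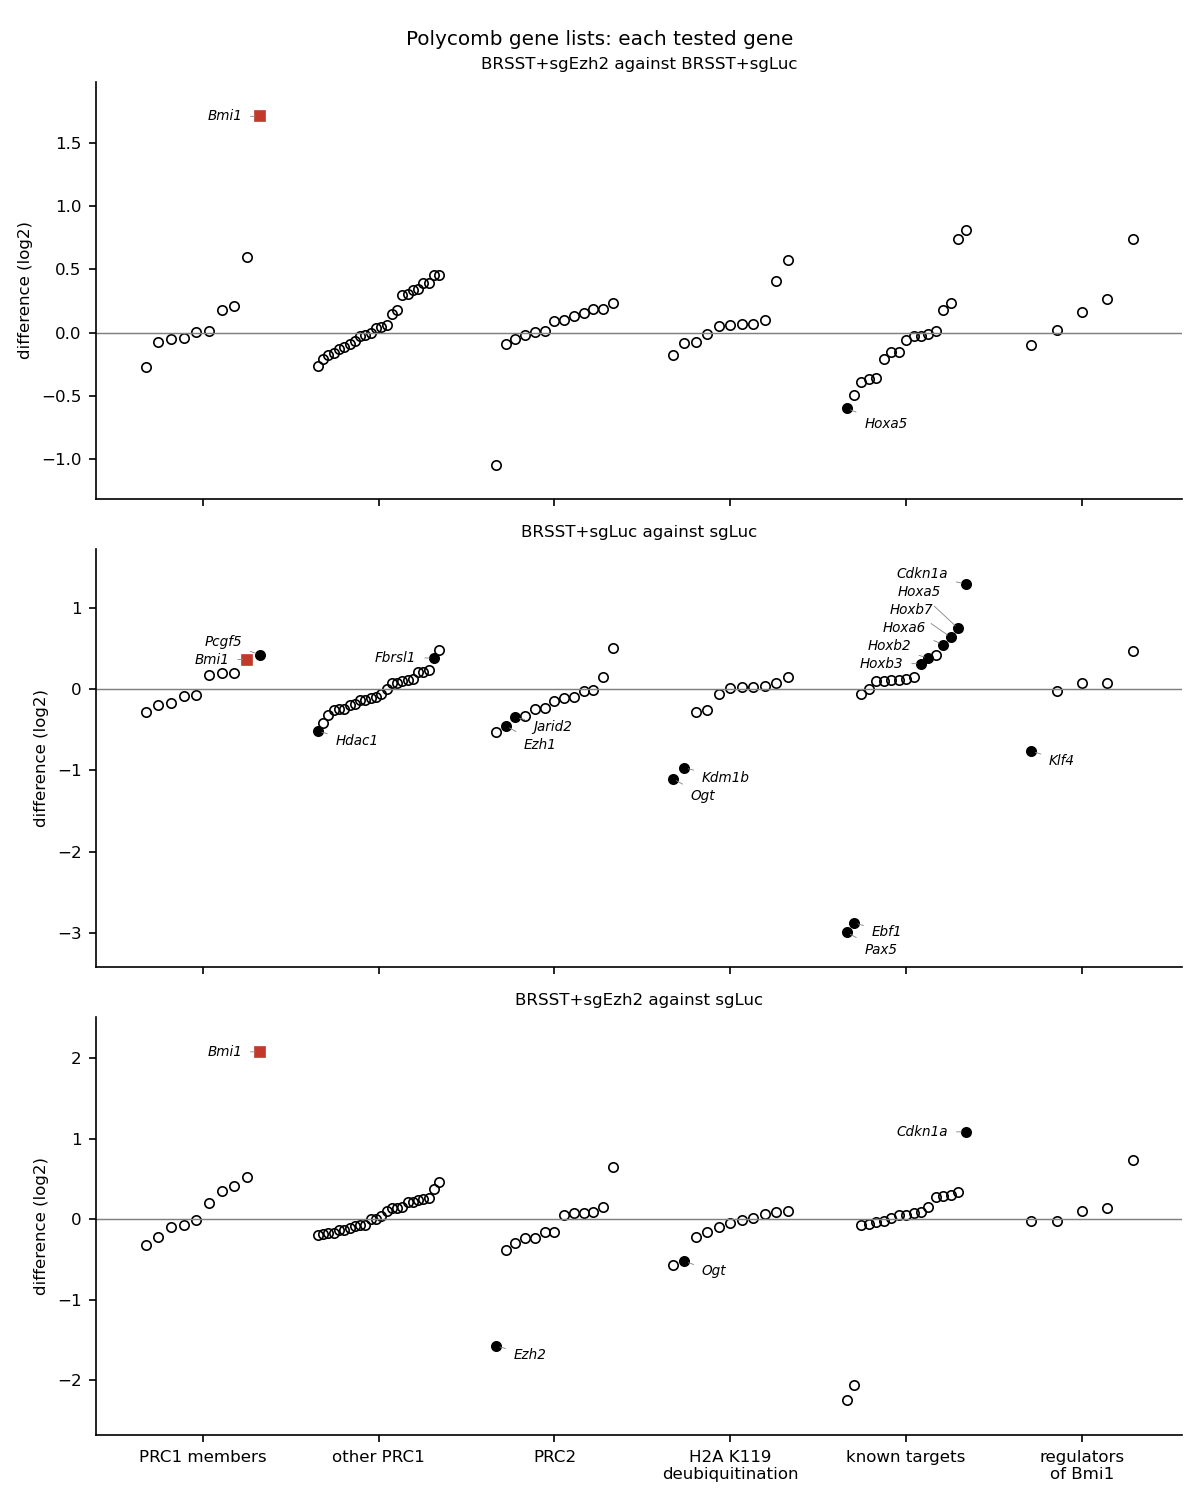
Differences (log2) of every tested gene in 6 Polycomb-related lists, sorted within each list, in the 3 comparisons. Filled points had a limma adjusted p under 0.05, open points did not, and the red square is Bmi1, shown without a test. In the top panel Bmi1 at 1.71 and Ezh2, the lowest open point at -1.05, stand at the ends, and Hoxa5 is the filled point.

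The genes with profiles closest to Bmi1 over the 13 arrays were Plxnb3, Hif3a, Igf2bp3, Gkap1 and Plag1. Likeness was the root mean square distance between log2 profiles after each gene was centred on its own mean, and it was 0.34, 0.38, 0.39, 0.41 and 0.42, where Bmi1 itself varied by 0.91 around its mean. Plxnb3, a semaphorin receptor, ranged from 8.70 to 9.57 in BRSST+sgEzh2, from 7.47 to 7.77 in BRSST+sgLuc and from 6.89 to 7.10 in sgLuc. Hif3a, a hypoxia-inducible factor subunit, was at 8.39 to 8.71, 6.69 to 7.69 and 6.47 to 6.75, and Gkap1, a protein kinase G anchor, at 10.11 to 10.32, 8.33 to 9.18 and 8.17 to 8.53. Igf2bp3, a fetal RNA-binding protein, was at 8.35 to 8.77, 6.92 to 7.20 and 6.82 to 7.25, and Plag1, a zinc finger oncogene, at 7.82 to 9.08, 6.05 to 6.49 and 6.30 to 6.96. In all 5 the BRSST+sgEzh2 arrays lay above every other array, which follows from the choice by likeness to Bmi1. BRSST+sgLuc and sgLuc did not overlap in Plxnb3, and they overlapped in the other 4 genes, as in Bmi1.

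**Figure D5:**
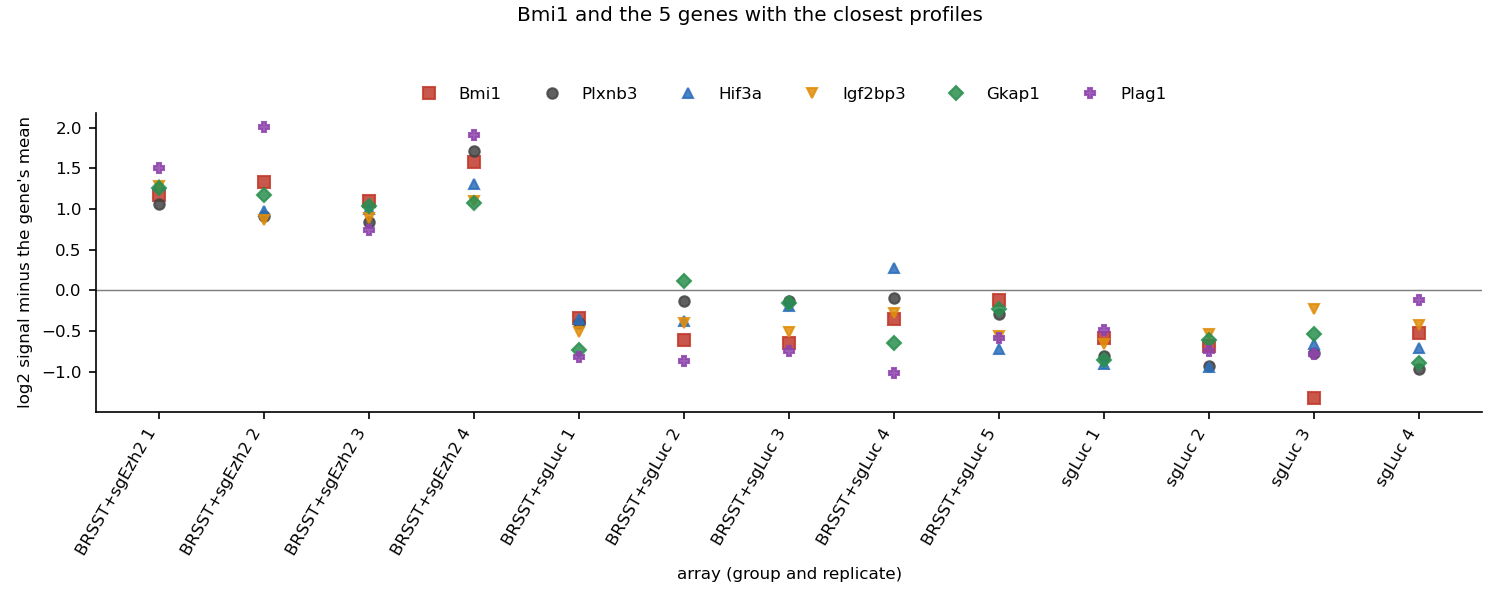
Log2 signal minus each gene's mean over the 13 arrays for Bmi1 and the 5 genes with the smallest distance to it, with 1 column per array. The 4 BRSST+sgEzh2 arrays stand above the other 9 for all 6 genes, and Bmi1 on sgLuc replicate 3 is the lowest point.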

How the data were processed

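The deposited values are log2 signals, 1 per array row and sample, and the scale was read from the values. R 3.5.01 and oligo are named in the submitters' processing notes, and how background was corrected and arrays were normalized is unknown here. Per the labels' protocols, 2 ng of RNA went through 10 PCR cycles. Of 22203 rows, 19572 had 1 symbol and 2631 none. Where a symbol had several rows (55 of 19505), the row of highest mean stood for it. An Entrez match of the 19572 to RefSeq changed 0 symbols. The test took in the 10601 genes whose signal exceeded the median of the array on 4 or more arrays.

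limma 3.58.1 (R 4.3.3; lmFit, eBayes) fitted all 13 arrays together without covariates, and p-values were adjusted by Benjamini-Hochberg over all genes tested, with a threshold of 0.05. The number of arrays limits the precision. On simulated data with 10601 genes, genes changed by log2 1 were recovered to 83% between the BRSST groups. Against sgLuc it was 84% for BRSST+sgLuc and 78% for BRSST+sgEzh2, and 6.19% to 7.14% of calls were false. The simulation changed 200 genes, gave each gene 1 SD for all groups and drew genes independently. In the data the spread differed between groups and some arrays deviated in many genes, so these shares are not the power there. Plots used matplotlib 3.10.9 (Python 3.11.15). All 10 members and the neighbours of Bmi1 were named, and from each other list up to 6 genes per comparison that passed, or the 2 with the smallest p. The genes most like Bmi1 were the 5 at the smallest distance, leaving out provisional gene symbols. Cdkn2a and Pcgf2, which were not tested, were named after their values were seen. Members and lists were chosen with earlier results of these data known. Alternatives changed the filter, the scaling (quantile normalization or equal medians), the summary of rows, the variance model (trended and robust), the array weights, the replicate number as a block, the groups in the fit and the Y-linked class as a covariate, and left out each array in turn. A fit without BRSST+sgLuc replicates 2 and 5 was added after seeing the data.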

Additional observations from a re-analysis of the deposited data

Results flagged for a closer look

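Of 120 groups of 4 or 5 arrays examined for the named genes, 9 had 1 array far from the others of its group by Dixon's criterion, and chance alone marks about 1 in 20. In 5 of the 9 the array was sgLuc replicate 3, with Rnf2 at 9.51, Commd3 at 9.07, Cdkn2a at 4.66, Phc1 at 7.61 and Hdac1 at 11.07. Rnf2 and Commd3 were lower there than on the other sgLuc arrays, and the other 3 were higher. Klf4 was high on BRSST+sgLuc replicate 3 at 9.16, and Ebf1 on BRSST+sgLuc replicate 2 at 10.00. Ogt on sgLuc replicate 1 was at 10.39, and Pip4k2a on BRSST+sgEzh2 replicate 4 was at 11.17. Bmi1 had no such array in any group.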

How the results depend on the processing

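The Bmi1 difference kept its direction in each of the 3 comparisons under every alternative run. Bmi1 was selected on these same arrays, so its kept direction is a description and carries no support. Genes passing between BRSST+sgEzh2 and BRSST+sgLuc numbered 83, and 128 without a filter, 36 with a filter at the 75th percentile, 55 with equal medians, 1039 with array weights, 17 with only the 2 groups compared, 170 with the Y-linked class as a covariate, 143 without BRSST+sgLuc replicates 2 and 5, and 22 to 377 with 1 array left out. In BRSST+sgLuc against sgLuc the count was 2389, and 4879 with array weights and 1481 to 2839 with 1 array left out. In BRSST+sgEzh2 against sgLuc it was 993, and 2976 with array weights, 1822 with only the 2 groups, 1739 without BRSST+sgLuc replicates 2 and 5 and 519 to 839 with 1 array left out. Members other than Bmi1 that passed numbered 0 between the BRSST groups, and 1 with array weights, 1 without those replicates and 0 to 1 with 1 array left out. They numbered 0 to 2 in BRSST+sgLuc against sgLuc with 1 array left out. In BRSST+sgEzh2 against sgLuc they were 5 with array weights, 3 with only the 2 groups, 2 without those replicates and 0 to 1 with 1 array left out. The cause was not tested.

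Small differences between the BRSST groups changed sign. Pcgf1 was -0.066 with quantile normalization, -0.022 with equal medians, -0.085 with array weights and -0.00062 with the Y-linked class, and -0.087 to 0.13 with 1 array left out. Pcgf6 was -0.0040 with quantile normalization, -0.027 with equal medians and -0.16 to 0.15 with 1 array left out. Without BRSST+sgLuc replicates 2 and 5 Phc3 was 0.0021 and Mllt10 0.077, and Mllt10 was 0.038 with array weights. With 1 array left out, Phc3 ran from -0.099 to 0.033, Mllt10 from -0.13 to 0.028, Cbx8 from -0.11 to 0.041 and Pcgf5 from -0.12 to 0.017. Against sgLuc, Pcgf6 ran from -0.20 to 0.075 and Ring1 from -0.092 to 0.038 in BRSST+sgEzh2, and Cbx7 from -0.16 to 0.0027 and Pcgf6 from -0.19 to 0.092 in BRSST+sgLuc.

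Replicate numbers did not pair the arrays: deviations of same-numbered arrays correlated at -0.18 to 0.19. With the replicate number as a block 28 genes passed between the BRSST groups, where Pcgf1 was -0.012, Phc3 0.033 and Mllt10 0.028. Only BRSST+sgLuc has a replicate 5, so the block also takes that array out of the differences. The fit without BRSST+sgLuc replicate 5 gave the same values for these genes, which therefore show no effect of pairing. The block also ended the calls of Hoxa5 between the BRSST groups (limma adjusted p = 0.0875) and of Fbrsl1 (0.0852) and Hdac1 (0.0827) in BRSST+sgLuc against sgLuc. Fbrsl1 (0.0618) and Hdac1 (0.066) lost their calls there without BRSST+sgLuc replicate 5 too. The number of arrays limits the precision.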
